A study of Rattus norvegicus with 10 samples.

Results

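The fatty acid desaturases and elongases of rat liver were followed through every probe set annotated to Scd, Scd2, Fads1, Fads2, Fads3, Elovl1, Elovl2, Elovl5 or Elovl6, which gave 14 of 31042 probe sets and 9 of 14217 genes. The family was chosen on the known difference of Scd2 between the dosed and vehicle arrays, so the dosed-against-vehicle values of its members are a description and carry no test of their own. Liver RNA of female rats, strain Harlan Sprague-Dawley, made up 2 groups of 5 samples, each hybridised to its own 3' expression array. The dosed group was gavaged with indole-3-carbinol (I3C), a compound of cruciferous vegetables, at 300 mg per kg in corn oil. The vehicle group was given the corn oil alone, at a stated dose of 0 mg per kg. Both groups shared strain, sex, route, oil and a schedule of 5 days per week, for which the labels give 13 weeks and the design text a study of 2 years. The labels state neither ages nor animal numbers, so a p-value covers only how far these samples spread, which may be technical. With whole tissue, fewer cells of a type and less RNA per cell cannot be told apart.

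Desaturases place double bonds into acyl chains bound to coenzyme A, and elongases lengthen those chains in the endoplasmic reticulum with carbon from malonyl-CoA. The stearoyl-CoA desaturases Scd (also written Scd1) and Scd2 turn palmitate and stearate into palmitoleate and oleate; in rodents Scd is the main form of the adult liver, and Scd2 is best known from the brain. Fads2 and Fads1 desaturate the essential fatty acids on the way to arachidonate and docosahexaenoate, and Fads3 is their less studied relative. Elovl6 lengthens palmitate, Elovl5 and Elovl2 lengthen polyunsaturated chains, and Elovl1 makes very long saturated chains. SREBP-1c, which Srebf1 encodes, and the liver X receptors are known to drive many of these genes in the liver.

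Scd2 and Elovl5 were the members with a probe set called between the groups, and the 250 bases upstream of their starts are shown from RefSeq on GRCr8, 5′ to 3′, with the letters of the motifs searched in capitals. The Scd2 window lies at chr1:253118127-253118376 on the plus strand and the Elovl5 window at chr8:87670914-87671163 on the plus strand, and both lie outside the bounds of their gene in the RefSeq gene table.
Scd2: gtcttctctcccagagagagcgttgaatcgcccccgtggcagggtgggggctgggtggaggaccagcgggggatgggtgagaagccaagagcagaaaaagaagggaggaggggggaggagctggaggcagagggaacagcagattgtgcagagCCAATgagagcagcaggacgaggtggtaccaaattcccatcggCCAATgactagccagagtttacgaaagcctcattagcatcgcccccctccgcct
Elovl5: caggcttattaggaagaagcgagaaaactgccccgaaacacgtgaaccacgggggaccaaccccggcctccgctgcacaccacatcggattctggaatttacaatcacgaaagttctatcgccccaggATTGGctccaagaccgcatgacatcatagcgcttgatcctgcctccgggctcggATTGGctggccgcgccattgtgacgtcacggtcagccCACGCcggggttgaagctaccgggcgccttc
The capitals of the Scd2 window are 2 CCAAT boxes, the site of the factor NF-Y, beginning 97 and 54 bases upstream of the start. Those of the Elovl5 window are 2 CCAAT boxes read on the other strand (ATTGG), at 122 and 68 bases, and 1 xenobiotic response core, GCGTG read as CACGC, at 31 bases. At least 1 CCAAT box occurs in 34.0% and at least 2 in 9.42% of the 33469 upstream windows of the table, and GCGTG occurs in 25.9%. Also searched on both strands were the antioxidant response element TGACNNNGC (10.1% of windows), the sterol response element TCACNCCAC (0.974%), the amino acid response element TTGCATCA (0.693%) and the liver X receptor type of direct repeat, AGGTCA followed after 4 free bases by AGGTCA (0.00299%), of which none matched in either window. No 2 of the marked matches overlap. Of the 9 members, 8 had a window in the table. That of Scd, which reaches into the bounds of its gene, held 1 GCGTG and 1 TGACNNNGC and no CCAAT box. That of Fads3, which was not called, held 2 CCAAT boxes, 1 GCGTG and 1 TGACNNNGC, and also reaches into its gene. The Fads1 window held 1 CCAAT box, and 1 window of Elovl2 held 1 GCGTG. Those of Fads2 and Elovl1 held no match. A pair of CCAAT boxes was thus not particular to the called members. A match is a stretch of letters and does not show that a factor binds there.

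Scd2 was the member that differed most between the groups. Its brightest probe set, 1367668_a_at, read 6.42, 7.30, 5.86, 6.29 and 5.99 in vehicle arrays 1 to 5 and 9.80, 9.37, 12.25, 9.45 and 11.37 in I3C arrays 1 to 5, on the log2 scale of the deposited values. Every dosed array lay above every vehicle array, and I3C 3 and I3C 5 stood well above the other dosed arrays. The mean went from 6.37 ± 0.57 (SD, n = 5) to 10.45 ± 1.29 (SD, n = 5), a difference of 4.08 ± 0.51 (SE from limma) or 16.9-fold. The vehicle mean was at the 52nd percentile of all probe sets. The dosed arrays spanned 7.37-fold and the vehicle arrays 2.71-fold, and only 3 of the 14217 genes had a larger SD among the dosed arrays.

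The other 3 probe sets annotated to Scd2 were dim in vehicle livers, at the 16.5th to 28th percentile of probe sets, and were higher in all 5 dosed arrays than in any vehicle array. Probe set 1386889_at read 4.47 to 5.09 in vehicle arrays and 5.94, 5.24, 8.10, 5.94 and 7.09 in I3C 1 to 5, a difference of 1.70 ± 0.42 (SE). Probe set 1388253_at read 4.33 to 4.67 and then 4.89, 4.76, 6.25, 4.83 and 5.56, a difference of 0.82 ± 0.24 (SE). Probe set 1398016_at read 4.88 to 5.26 and then 5.51, 5.29, 6.15, 5.42 and 5.57, a difference of 0.58 ± 0.14 (SE). The 4 probe sets thus gave the same direction at sizes from 1.49-fold to 16.9-fold. I3C 3 was the highest, I3C 5 the next and I3C 2 the lowest dosed array on all 4. Among the 5 dosed arrays the correlation of the brightest with the other 3 was 0.98, 0.99 and 0.90 in the order just given, and among the 5 vehicle arrays it was -0.07, -0.19 and -0.70, over points that share the arrays and their normalisation.

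Scd, the close relative of Scd2 that stands near it on chromosome 1 with 1 protein-coding gene between them, did not separate the groups. Its probe set, 1370355_at, read 10.21, 11.19, 11.07, 11.20 and 11.56 in vehicle arrays and 10.13, 11.91, 12.23, 11.23 and 10.95 in I3C 1 to 5. The groups overlapped, with I3C 2 and I3C 3 above every vehicle array, I3C 1 below them all and the other 2 dosed arrays among them. The difference was 0.25 ± 0.35 (SE; 0.58 with array weights, not called either), with a 95% interval from -0.51 to 1.00, which reaches from a modest decrease to a clear increase. Like Scd2, Scd varied widely, with only 17 genes of larger SD among the dosed arrays.

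Set against its own vehicle mean in each array, Scd2 moved by 3.43, 3.00, 5.88, 3.08 and 5.00 in I3C 1 to 5, and Scd by -0.92, 0.87, 1.19, 0.19 and -0.09. I3C 1, where Scd was lowest of all 10 arrays, and I3C 5, where it lay at its vehicle mean, had Scd2 above its own by 3.43 and 5.00. The change of Scd2 exceeded that of Scd by 2.13 to 5.09 in the dosed arrays, against -0.90 to 0.87 in the vehicle arrays. The mean excess was 3.83 (SD 1.26, n = 5), and it was 1.55 when the 4 Scd2 probe sets were averaged, the other 3 having the smaller differences given above. Scd2 and Scd correlated at 0.36 over the 5 dosed arrays, and whether either probe set also takes up transcript of the other gene was not tested.

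**Figure D1:**
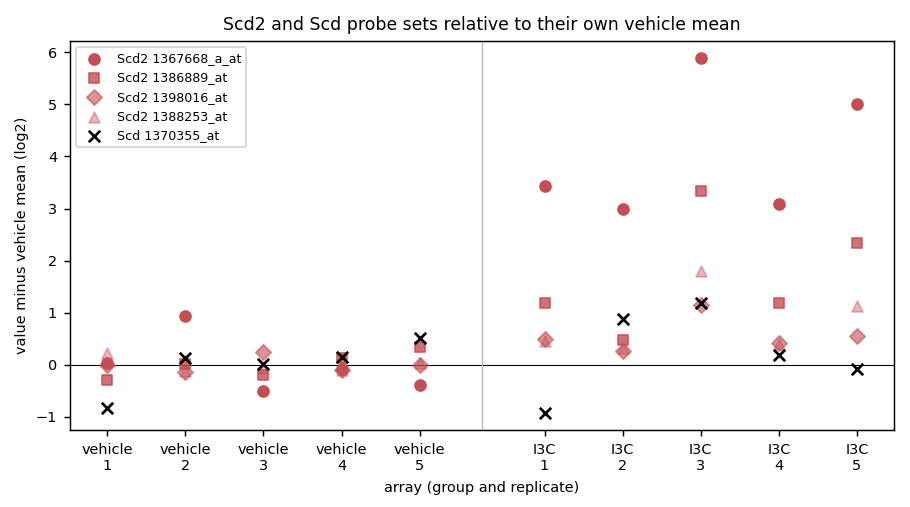
Value of each Scd2 probe set (red, 4 symbols) and of the Scd probe set (black crosses) minus that probe set's vehicle mean, log2, in each of the 10 arrays. All 4 Scd2 probe sets are above all their own vehicle values in the 5 dosed arrays and highest in I3C 3, while Scd lies between -0.92 and 1.19.

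Over all 14 member probe sets, 4 were called higher and 0 lower by limma at an adjusted p under 0.05 over all probe sets, where 4.79% of all probe sets were called, 2.49% higher and 2.30% lower. The 4 calls were 3 probe sets of Scd2, with 1388253_at not called, and 1 of Elovl5. The groups did not overlap for 6 member probe sets, all higher, against 6.50% of all probe sets without overlap, 3.44% higher and 3.07% lower; these were the 4 of Scd2, Fads1 and the called one of Elovl5. By the brightest probe set of each gene, 1 of 9 genes was called, against 6.43% of all genes, and 2 did not overlap, against 8.67%. The median difference of the 9 genes was 0.26 and that of all genes 0.00, and without Scd2 it was 0.25 over 8 genes, of which 7 were above 0. Because this contrast chose the family, nothing is read from these shares. The count of 4 became 2 without vehicle 1, vehicle 2, vehicle 4 or I3C 5, through Scd2 1386889_at and 1398016_at, while Scd2 1367668_a_at and Elovl5 1387630_at were called with any 1 array left out.

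**Figure D2:**
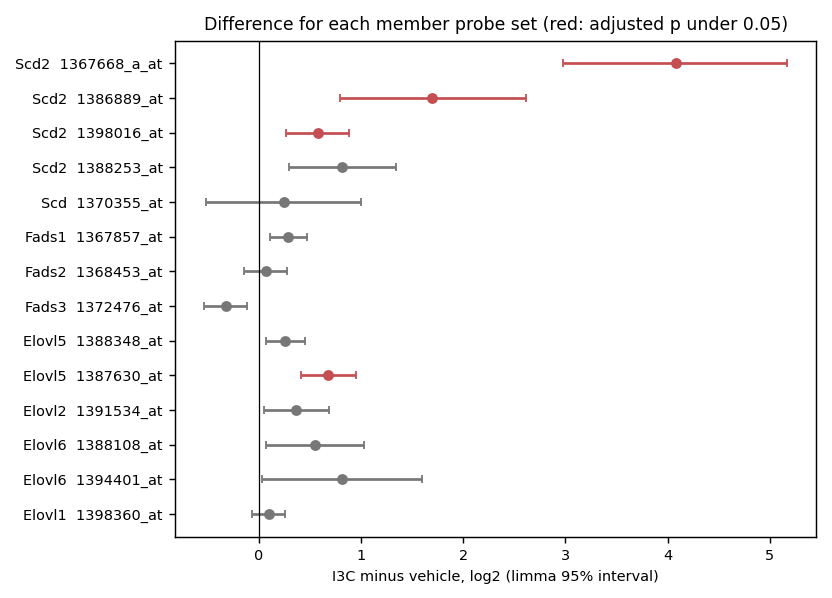
Difference between dosed and vehicle means, log2, with its 95% interval from limma, for each of the 14 member probe sets. Red points were called at an adjusted p under 0.05, and Scd2 1367668_a_at at 4.08 stands apart from the other 13, which lie between -0.32 and 1.70.

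The front-end desaturases lie side by side on chromosome 1, in the order Fads3, Fads2, Fads1, and differed little. Fads1, which makes arachidonate from its precursor, read 12.89, 12.58, 12.94, 12.94 and 12.77 in vehicle arrays and 12.98, 13.19, 13.21, 13.01 and 13.17 in dosed arrays. All dosed arrays were above all vehicle arrays by a narrow gap, and the difference of 0.29 ± 0.08 (SE), 1.22-fold, was not called. It was called with array weights, at 0.30, and with the beta-actin measure described further on, at 0.42.

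Fads2, the entry enzyme of the polyunsaturated pathway, ranged from 11.53 to 11.90 in vehicle and from 11.58 to 12.02 in dosed livers, a difference of 0.07 ± 0.10 (SE, 95% interval -0.14 to 0.28). Fads3 was the member with a negative difference. It read 7.10, 6.80, 6.95, 6.67 and 6.96 in vehicle arrays and 6.76, 6.38, 6.48, 6.54 and 6.73 in dosed arrays, which overlapped, and all 5 dosed arrays were below the vehicle mean. The difference of -0.32 ± 0.10 (SE) was not called. With group means removed, Fads2 and Fads3 ran against each other over the 10 arrays (r = -0.68), while Fads1 and Fads2 ran together (r = 0.55).

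Elovl5, which lengthens polyunsaturated chains between the desaturation steps, was represented by 2 probe sets that pointed the same way at unlike sizes. The brighter, 1388348_at, read 12.89, 12.59, 12.97, 12.86 and 12.82 in vehicle arrays and 12.86, 13.07, 13.21, 13.11 and 13.17 in dosed arrays. Only I3C 1 fell among the vehicle arrays, and the difference of 0.26 ± 0.09 (SE) was not called. The dimmer, 1387630_at, read 10.21, 10.01, 10.14, 9.96 and 10.28 and then 10.37, 10.62, 10.99, 11.00 and 11.02, with no overlap and a called difference of 0.68 ± 0.12 (SE), 1.6-fold. I3C 1 was the lowest dosed array on both. Which transcripts of Elovl5 the 2 probe sets cover is not given in the sources used here.

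Elovl2, which acts on long polyunsaturated chains, read 10.62, 10.51, 10.44, 10.41 and 10.55 in vehicle arrays and 10.35, 10.76, 10.94, 10.91 and 11.41 in dosed arrays. I3C 1 was below every vehicle array and the other 4 dosed arrays were above them all. The difference was 0.37 ± 0.15 (SE) and not called, and it was 0.50 and called without I3C 1. The dosed arrays spanned 2.09-fold and the vehicle arrays 1.16-fold. With group means removed, Elovl2 correlated at 0.82 with Elovl5 1387630_at and at 0.49 with Scd2 1367668_a_at over the 10 arrays. With the brighter Elovl5 1388348_at its correlation was 0.54, and with Elovl1 it was -0.59.

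Elovl6, the elongase of palmitate, was split within the vehicle group. Its brighter probe set, 1388108_at, read 9.66, 9.42, 10.45, 10.67 and 9.75 in vehicle arrays and 10.41, 10.96, 10.67, 10.32 and 10.34 in dosed arrays, so that vehicle 3 and vehicle 4 lay among the dosed arrays and the other 3 vehicle arrays below them. The dimmer, 1394401_at, read 7.36, 7.12, 8.53, 8.95 and 7.03 and then 8.43, 9.24, 9.01, 8.05 and 8.35, with the same vehicle arrays high. The differences were 0.55 ± 0.22 and 0.82 ± 0.36 (SE), neither called, and the probe sets correlated at 0.96 with group means removed. Elovl1 differed little, with means of 9.63 ± 0.11 for vehicle and 9.73 ± 0.09 for dosed livers (SD, n = 5 each), with a difference of 0.10 ± 0.07 (SE, 95% interval -0.06 to 0.26).

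**Figure D3:**
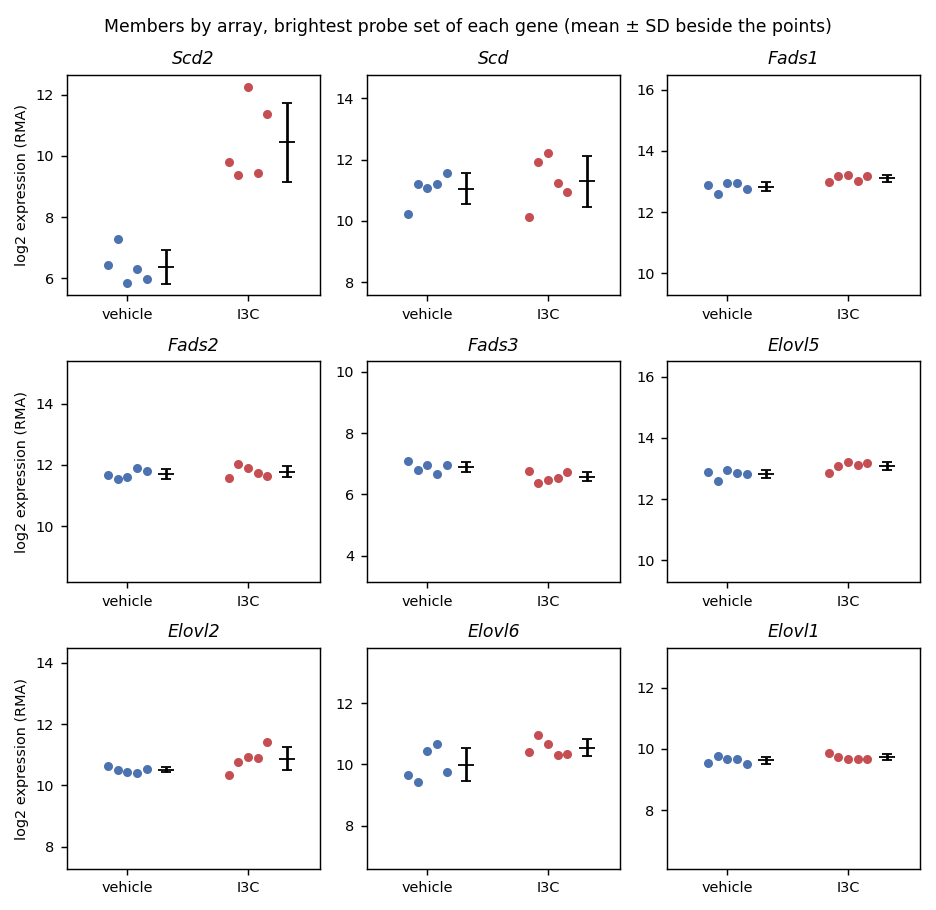
Log2 expression of the brightest probe set of each of the 9 genes in the 5 vehicle (blue) and 5 dosed (red) arrays, with mean ± SD beside the points and axes of equal length. Scd2 separates widely, Scd is wide in both groups, and the vehicle points of Elovl6 fall into a lower set of 3 and a higher pair.

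Measures of RNA quality moved with the groups and, for some members, within them. For the GAPDH controls, the 3' signal minus the 5' signal, which grows as RNA breaks down, averaged 0.45 ± 0.12 over vehicle arrays and 0.23 ± 0.05 over dosed arrays (SD, n = 5 each) (exact permutation p = 0.00794, two-sided, the smallest that 5 against 5 allows; adjusted over 2 measures 0.0159). For beta-actin it was 1.59 ± 0.12 and 1.40 ± 0.14 (SD, n = 5 each; exact permutation p = 0.0476, adjusted 0.0476). Scd2 1367668_a_at had a correlation of -0.18 with the GAPDH measure and 0.08 with the beta-actin measure once group means were removed, over 10 arrays. Elovl6 followed the beta-actin measure at 0.78 and 0.88 for its 2 probe sets, vehicle 3 and vehicle 4 being the highest vehicle arrays in both (1.70 and 1.74 for beta-actin), and Fads1 followed it at 0.67.

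With the GAPDH measure as a covariate, Scd2 1367668_a_at differed by 3.65 ± 0.85 and Elovl5 1387630_at by 0.76 ± 0.21 (SE), and 0 of the 14 member probe sets were called by limma, while 355 of all 31042 were. In the same fit Scd differed by 0.84 ± 0.55 (SE), a larger value than without the covariate. With the beta-actin measure, Scd2 1367668_a_at differed by 4.19 ± 0.67 and was called, and Elovl5 1387630_at lost its call at 0.52 ± 0.15. Scd2 1386889_at at 1.69 ± 0.56 and Scd2 1398016_at at 0.65 ± 0.18 (SE) lost their calls in that fit too. There Elovl6 gained calls at 1.05 ± 0.19 and 1.75 ± 0.24 for its 2 probe sets, and Fads1 gained a call too. The GAPDH measure ran from 0.32 to 0.65 in vehicle arrays and from 0.16 to 0.29 in dosed arrays, without overlap. In the fit with it, dosing and RNA quality can therefore not be well told apart. There the SE of Scd2 1367668_a_at was 0.85, against 0.51 without a covariate. The part of RNA quality in these differences was not tested.

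**Figure D4:**
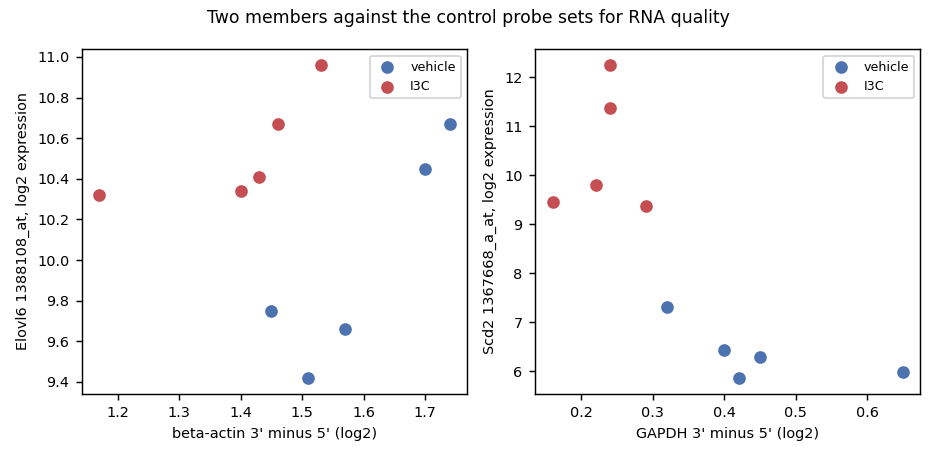
Left, Elovl6 1388108_at against the beta-actin 3' minus 5' difference; right, Scd2 1367668_a_at against the GAPDH 3' minus 5' difference; both axes log2, 1 point per array, vehicle blue and dosed red. Elovl6 rises with the beta-actin measure within the groups, and on the right the dosed arrays are to the left of and above all vehicle arrays.

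The arrays matched their labels as far as a known target shows: Cyp1a1, the enzyme most responsive to aryl hydrocarbon receptor ligands, lay between 5.13 and 6.08 in vehicle and between 13.86 and 13.97 in dosed arrays. The 8 hepatocyte markers measured of 9 listed, Alb among them, stood at or above the 99.8th percentile of probe sets in vehicle livers, with 1 of them, Apoa1, called higher. Over all genes 3.32% were called higher and 3.11% lower. Of the 7 macrophage markers measured of 9, 2 were called lower and all 7 had a negative difference (median -0.36). The summed linear signal of the list was 7220 to 9100 in vehicle and 5070 to 6750 in dosed arrays. Those 2 calls became 0 without vehicle 1 or I3C 5, and 1 without vehicle 2, vehicle 4, I3C 1 or I3C 4; they became 4 with array weights or the mean of probe sets, 1 with the beta-actin measure, and 0 with the GAPDH measure, without moderation or at an adjusted p of 0.01. None of the 6 adipocyte markers was called, with sums of 1350 to 1690 and 1610 to 1840, and the defining marker Adipoq was at 4.32 in both groups, the 14th percentile. None of the 6 bile duct markers was called (481 to 613, then 511 to 699), nor any of the 5 endothelial (4420 to 5150, then 4130 to 4700) or the 6 lymphocyte markers (438 to 528, then 392 to 465). Of 8 stellate cell markers 1, Rgs5, was called higher, with sums of 3070 to 3840 and 2760 to 3450. Negative differences were not particular to macrophage markers. All 5 endothelial markers had one (median -0.11), and only 2 of the 8 stellate markers were above 0 (median -0.12). Without vehicle 5, 1 stellate marker was lower. The part of other cell types in the member differences was not tested.

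Of the called genes around the desaturases and elongases, those farthest from 0 were Me1, a source of NADPH, Por, an electron carrier, Ahr, the aryl hydrocarbon receptor, and Insig1, a brake on SREBP processing, all higher in dosed livers. Over all pathway lists 81 of 95 genes were measured, of which limma called 9 higher and 5 lower, against 3.32% and 3.11% of all genes. Their median difference was 0.00, the same as over all genes. The 5 became 3 without vehicle 2, vehicle 4, I3C 2, I3C 4 or I3C 5.

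Desaturases draw electrons from cytochrome b5, and 2 of 6 measured genes of electron supply rose while 0 fell (list median 0.12). Of all genes, 3.32% were called higher and 3.11% lower. Cyb5a, the microsomal cytochrome b5 itself, read 13.65, 13.51, 13.61, 13.47 and 13.47 in vehicle arrays and 14.06, 13.93, 13.96, 13.96 and 13.90 in dosed arrays. Its groups did not overlap, and it rose by 0.42 ± 0.06 (SE, limma adjusted p = 0.00177). Por, the reductase of microsomal P450 enzymes, which can also reduce cytochrome b5, read 9.50, 9.90, 9.47, 9.32 and 9.83 in vehicle arrays and 11.17, 10.99, 10.68, 11.03 and 10.75 in dosed arrays, and rose by 1.32 ± 0.12 (SE, limma adjusted p = 7.71e-05). Cyb5r3, the usual reductase of cytochrome b5, differed by 0.11 ± 0.09 (SE). With the GAPDH measure Por kept its call, and Cyb5a had 0.36 ± 0.10 (SE, limma adjusted p = 0.13).

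Among 10 genes of malonyl-CoA and palmitate supply 1 rose and 0 fell (median 0.05), where 3.32% of all genes were called higher and 3.11% lower. The risen gene was Me1, malic enzyme, which yields NADPH for synthesis, from 9.66 ± 0.16 to 11.56 ± 0.26 (SD, n = 5 each), a difference of 1.89 ± 0.12 (SE, limma adjusted p = 2.53e-06). Thrsp, which responds to thyroid hormone and carbohydrate, differed by 0.19 ± 0.21 and Acly, the source of cytosolic acetyl-CoA, by -0.01 ± 0.18 (SE); Acly changed sign under several alternatives. In the rest of the elongation cycle 1 of 5 measured genes rose and 1 fell (median 0.01), the hydroxyacyl-CoA dehydratases Hacd3 (0.25 ± 0.06, limma adjusted p = 0.0433) and Hacd1 (-0.30 ± 0.08, limma adjusted p = 0.045). Both are close to the threshold: Hacd3 lost its call with any array but vehicle 2 left out, Hacd1 with any but vehicle 5 or I3C 1 (and at -0.14 over the mean of its probe sets), and each with the replicate number as a block, at an adjusted p of 0.114 and 0.0975. Of 4 measured relatives outside the family 0 passed limma; Degs1, the ceramide desaturase, differed by 0.09 ± 0.09 and Fa2h, a fatty acid hydroxylase, by -0.04 ± 0.08 (SE), and 0 of the 4 had an unadjusted p under 0.05, which 19.8% of all genes had.

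Regulators of these genes went both ways: of 19 measured 4 rose and 1 fell (median -0.04). The shares called over all genes were 3.32% higher and 3.11% lower. Srebf1, whose product activates the desaturases, fell by 0.62 ± 0.13 (SE, limma adjusted p = 0.0158), from 10.63, 10.69, 10.87, 10.94 and 10.96 in vehicle arrays to 9.91, 10.53, 10.41, 9.86 and 10.28 in dosed arrays. Insig1 and Insig2, which hold back SREBP processing, rose by 0.88 ± 0.15 and 0.57 ± 0.09 (SE), and Ahr, the aryl hydrocarbon receptor, by 1.02 ± 0.13 (SE, limma adjusted p = 0.00506, 0.0033 and 0.000638). The groups did not overlap for any of these. The other risen regulator, Ppara, is the receptor that drives fatty acid oxidation (0.43 ± 0.11, limma adjusted p = 0.0479). Its groups overlapped, and it is close to the threshold. The count of 4 became 3 with array weights or without moderation, and was 3 to 4 with 1 array left out. Ahr, Insig1 and Insig2 kept their calls in all of these. With the GAPDH measure none of the regulators was called by limma, Srebf1 being at -0.29 ± 0.19 and Ahr at 0.65 ± 0.18 (SE). With the beta-actin measure Srebf1 (-0.41 ± 0.15), Insig2 (0.44 ± 0.11) and Ppara lost their calls, and Srebf1 also did without moderation (limma without eBayes, adjusted p = 0.0804). Over the mean of its probe sets Ahr differed by 0.53 and was still called.

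Of 16 genes of phospholipid and neutral lipid synthesis 1 rose and 2 fell (median 0.01), 3 called of 16 where 6.43% of all genes were: Dgat2, which closes triglyceride synthesis, fell by 0.49 ± 0.09 (limma adjusted p = 0.00551), Agpat2, an acyltransferase of the same route, by 0.30 ± 0.07 (limma adjusted p = 0.0243), and Pnpla2, the triglyceride lipase, rose by 0.42 ± 0.11 (limma adjusted p = 0.0495). Without vehicle 5 the count higher was 2. Pnpla2 lost its call with any array but vehicle 2 or I3C 3 left out and Agpat2 without vehicle 1, 2 or 4 or I3C 2, 4 or 5, and both with the replicate block (adjusted p of 0.0616 and 0.0871). Of 13 genes of acyl-CoA formation and carriage 1 fell, Slc27a5, a liver acyl-CoA synthetase (-0.48 ± 0.07, limma adjusted p = 0.00133), with Fabp1 at -0.10 ± 0.06 and Acsl1 at -0.07 ± 0.08 (SE). Of 8 measured peroxisomal genes 0 passed limma, with Scp2 at -0.07 ± 0.05 and Hsd17b4 at -0.06 ± 0.07 (SE), and 1 fell without vehicle 1 or vehicle 5. With the GAPDH measure 2 pathway genes were called higher, Por and Me1, and 1 lower, Acot2 (-1.06 ± 0.16); with the beta-actin measure these counts were 5 and 2.

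**Figure D5:**
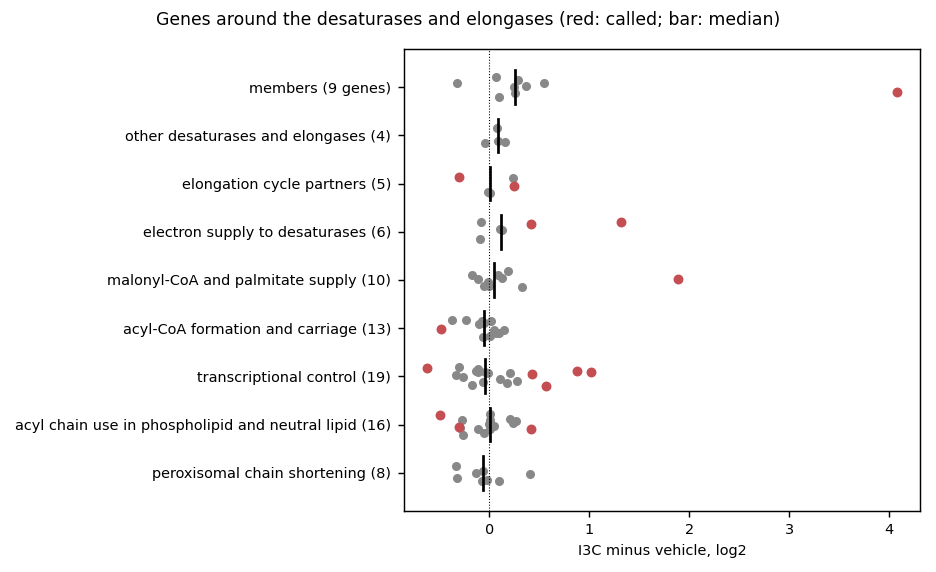
Difference between dosed and vehicle means, log2, for the brightest probe set of each gene in 9 rows: the members and 8 pathway lists, with the number of genes in brackets. Red points were called, the bar is the row's median, and Scd2 at 4.08 and Me1 at 1.89 are the points farthest to the right.

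The genes whose values ran most like those of Scd2 within the groups were, by Pearson's r over the 10 arrays with group means removed and among 2122 candidates, Il33 (0.84), Vkorc1l1 (0.82), Reps2 (0.78), Bmt2 (0.77) and Ccdc141 (0.77). In 4 of the 5, I3C 3 was the highest dosed array, and in Reps2 it was I3C 5. Their differences between the groups were not alike: Il33, a cytokine of barrier tissues, differed by -1.03 ± 0.16, Vkorc1l1, a vitamin K epoxide reductase, by 0.82 ± 0.13, and the other 3 differed by -0.32 to 0.15 with none called. These r values were the highest of 2122 and carry no test. The shared highest array follows from the choice by r with Scd2, which is itself highest in I3C 3 and then I3C 5.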

How the data were processed

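Values were deposited on the log2 scale after RMA, per the submitters' processing notes, with no version stated there. RMA evens out the arrays and compresses differences of dim and of very bright probe sets. The medians of the 10 arrays were 6.21 to 6.29; the number of arrays limits the precision.

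The table holds 31099 probe sets, of which 57 controls were left out of the fit. Names came from the platform annotation, with symbols by Entrez ID from RefSeq (GRCr8): 20826 probe sets carry 1 gene, 436 several (unused) and 9780 none. A gene was followed through its brightest probe set. limma 3.58.1 in R 4.3.3 (lmFit, eBayes, prior degrees of freedom 4.60) compared the groups, with Benjamini-Hochberg adjustment over 31042 probe sets and a threshold of 0.05. On simulated arrays of that comparison it recovered 88.1% of 67 probe sets changed 1.5-fold and called 9 unchanged ones. That share is over the simulated probe sets and does not hold for a member of wide spread. Elovl6 1394401_at, with a vehicle SD of 0.88, differed 1.76-fold and was not called.

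Members, lists (127 of 149 symbols matched) and alternatives were chosen with earlier results of these data known. Named are all members, up to 4 called genes per list by size (or the 2 brightest where fewer than 2 were called), Cyp1a1, and the 5 genes most like Scd2 with a mean of at least 6 and a within-group SD of at least 0.2. Marker genes, Cyb5r3, Ppara and Acot2 were added after their values were seen. The alternatives are given under the dependence on processing.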

Additional observations from a re-analysis of the deposited data

Results flagged for a closer look

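Over 86 groups of 5 arrays, 3 had an array set apart from the other 4 by a gap over 0.710 of the group's range, where chance gives about 1 in 20 groups. None was in a member. Hacd1 in the dosed group had I3C 1 at 6.92 against 6.63 to 6.67 in the others (0.879 of the range). Acsl1 in the vehicle group had vehicle 5 at 13.42 against 13.67 to 13.76 (0.716), and Reps2 there had vehicle 5 at 7.83 against 8.19 to 8.26 (0.827).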

How the results depend on the processing

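No member difference that was called changed sign under any alternative run. The called member probe sets, 4, became 6 with array weights, where Scd2 1388253_at and Fads1 gained calls. They became 2 at an adjusted p of 0.01, 1 without moderation and 0 with the GAPDH covariate. With the beta-actin covariate they were again 4, but these were Scd2 1367668_a_at, Fads1 and both Elovl6 probe sets. With 1 array left out they were 2 to 4, and Scd2 1367668_a_at then differed by 3.63 to 4.35. With dim probe sets left out they were 2, Scd2 1367668_a_at and Elovl5 1387630_at. The other Scd2 probe sets were not in that fit, so their calls were not tested there. The excess of Scd2 over Scd, 3.83, was 1.55 with the mean of probe sets, 2.81 with the GAPDH covariate and 3.85 with the beta-actin covariate. With 1 array left out it ran from 3.51 to 4.25. Over all probe sets 772 were higher and 715 lower: lower 1122 with array weights and 380 without moderation; 374 and 272 at 0.01; 171 and 184 with the GAPDH covariate; 418 and 334 with the beta-actin covariate; and 548 to 905 and 477 to 1180 with 1 array left out, the last without vehicle 5. Pathway genes called lower, 5, became 3 with the replicate block or without moderation and 2 at 0.01; with the GAPDH covariate 2 were higher and 1 lower, with beta-actin 5 and 2, and with 1 array left out 6 to 9 and 3 to 6. The beta-actin quality difference of -0.19 ranged from -0.23 to -0.14 with 1 array left out and lost its call without vehicle 1, 3 or 4 or I3C 1, 3, 4 or 5 (exact permutation p from 0.0556 to 0.0952). Where no value is given, the cause was not tested. The replicate numbers showed no clear pairing of the samples. Correlations of same-numbered deviations ran from -0.28 to 0.22, and 2 of 5 vehicle arrays correlated best with their own number. With so few arrays this cannot exclude a pairing. With the block, Scd2 1367668_a_at stayed at 4.08 and called, and it ended the calls of Hacd1, Hacd3, Pnpla2 and Agpat2 among the named genes.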
